A study of Rattus norvegicus with 42 samples.

Results

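Immediate early genes are the genes that neurons and other cells switch on within minutes of a stimulus, without first making new protein. Calcium entry through NMDA receptors and voltage-gated channels activates kinases that act on CREB, SRF and MEF2, factors already bound at their promoters, and the transcripts are short-lived. Fos, Fosb, Fosl2, Jun and Junb encode subunits of the AP-1 transcription factor. Egr1, Egr2, Npas4 and Nr4a1 encode other DNA-binding factors, with Npas4 known for its dependence on calcium entry in neurons, and Arc encodes a postsynaptic protein that takes part in the removal of AMPA receptors from the synapse. In the hippocampus their levels are widely read as a record of recent neuronal activity. The 10 genes were taken by symbol from the deposited count table. Each is listed with 1 transcript, so they make up 10 of the 14304 gene symbols in the table, and all 10 were tested.

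The animals were male Sprague Dawley rat pups, injected once intraperitoneally on postnatal day 7 and returned to the dam. The pups came from 2 orders of dams, and each litter gave 1 pup to each group. The labels do not tie an animal to its litter or order. One group received saline (VEH), one phenobarbital at 75 mg/kg (PB, a barbiturate antiseizure drug that acts on GABA-A receptors) and one levetiracetam at 200 mg/kg (LEV, an antiseizure drug that binds the vesicle protein SV2A). The hippocampus was taken 72 hours later and sequenced, 1 library per animal, after all groups had been killed with a pentobarbital overdose and perfused. Tissue was collected through the working day, and no time of collection for each animal was used here. Each group holds animals with 2 forms of sample code, 2-letter codes for animals 1 to 6 and 1-letter codes for animals 7 to 14, and every comparison was also made within each form. VEH animal 7 is marked as excluded in its label and enters no test. The analysis thus used 13 VEH animals, 14 PB animals and 14 LEV animals, 6 of each group in animals 1 to 6 and 7, 8 and 8 in animals 7 to 14.

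Totals were 9499492 to 14488134 estimated counts per animal, and the members' estimated counts ran from 7 to 2211. VEH animal 1 had 1 count over the 3 Y-linked transcripts of the table, where the other 40 analysed animals had 1245 to 1924, which goes against the label of a male pup. Values without it are given beside the results. Markers of hippocampal neurons were detected, with none of 16 listed transcripts at 0 throughout any group and code form. Their summed normalized count was 26975 to 39804 per animal. None of 8 markers of neocortex and thalamus was at 0 throughout either (sums of 1961 to 3628). Detection alone therefore cannot tell the hippocampus from neighbouring tissue. In bulk RNA, fewer cells of a type and less RNA per cell cannot be told apart. Normalized counts are counts scaled to a common library size, and log2 fold changes come from edgeR (quasi-likelihood), with p-values adjusted by Benjamini and Hochberg's method over 13062 transcripts. A transcript was called differentially expressed at an adjusted p under 0.05 where the higher group was at least 25% above the lower, which is the fold limit named hereafter.

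In the rn6 build of the deposited table, Fos lies on chromosome 6 from 109300433 to 109303300, Npas4 on chromosome 1 from 220261008 to 220265773, Arc on chromosome 7 from 115907097 to 115910542 and Nr4a1 on chromosome 7 from 142912309 to 142920216. RefSeq promoters of the GRCr8 build, 300 bases each from upstream of the gene's start to just past it, were found for 7 of the 10 members (Fosb, Fosl2, Junb, Egr1, Egr2, Npas4 and Nr4a1). Those of Npas4 (chr1:211716053-211716352, minus strand), Nr4a1 (chr7:134259888-134260187, plus strand), Junb (chr19:40080876-40081175, plus strand) and Egr2 (chr20:21054392-21054691, minus strand) are shown because the first 3 had the clearest differences between groups or code forms and Egr2 holds both a CArG box and a TGACG match. Capitals mark every match to the motifs named in the next paragraph, on either strand, and Npas4 holds none:
Npas4: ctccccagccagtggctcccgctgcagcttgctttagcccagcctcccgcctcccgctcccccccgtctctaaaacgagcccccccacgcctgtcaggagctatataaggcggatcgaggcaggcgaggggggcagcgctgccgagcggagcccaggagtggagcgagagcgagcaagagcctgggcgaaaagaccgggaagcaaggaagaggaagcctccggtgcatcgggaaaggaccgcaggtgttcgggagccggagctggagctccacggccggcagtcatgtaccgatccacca
Nr4a1: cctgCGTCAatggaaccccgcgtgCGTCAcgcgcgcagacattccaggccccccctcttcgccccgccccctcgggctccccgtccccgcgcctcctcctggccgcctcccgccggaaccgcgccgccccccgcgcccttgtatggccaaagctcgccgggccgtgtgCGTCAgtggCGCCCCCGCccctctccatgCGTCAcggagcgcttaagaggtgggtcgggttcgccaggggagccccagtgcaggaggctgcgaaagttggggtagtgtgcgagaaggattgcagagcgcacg
Junb: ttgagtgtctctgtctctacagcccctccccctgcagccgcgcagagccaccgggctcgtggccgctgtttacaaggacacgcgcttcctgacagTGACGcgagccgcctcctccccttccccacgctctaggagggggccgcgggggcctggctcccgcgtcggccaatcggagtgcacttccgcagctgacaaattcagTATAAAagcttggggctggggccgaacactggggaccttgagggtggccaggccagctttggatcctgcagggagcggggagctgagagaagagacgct
Egr2: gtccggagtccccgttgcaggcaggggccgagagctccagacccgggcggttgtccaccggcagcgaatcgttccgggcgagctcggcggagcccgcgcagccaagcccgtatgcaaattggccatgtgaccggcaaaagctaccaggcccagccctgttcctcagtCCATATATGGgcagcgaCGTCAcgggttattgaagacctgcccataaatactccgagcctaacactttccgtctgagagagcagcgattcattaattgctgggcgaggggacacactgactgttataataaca

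The motifs searched were TGACG, a part of the cyclic AMP response element that CREB binds (CGTCA on the other strand), the full element TGACGTCA, the CArG box that SRF binds, TGANTCA for AP-1, GCGNGGGCG for EGR factors, CACGTG for E-boxes and TATAAA. The full element contains the shorter one. The shorter one was found in the promoters of 4 of the 7 members (Junb, Egr1, Egr2 and Nr4a1), beside 21.2% of the 33469 promoters of this length. Nr4a1 held 4 matches to it, and an EGR match between the last 2 of them. The CArG box was found in Egr1 and Egr2, beside 1.64% of promoters, and the EGR motif in Fosl2 and Nr4a1, beside 4.98%. TATAAA was found in Fosb and Junb (14.2% of promoters). The full element (1.83% of promoters), the AP-1 motif (7.33%) and the E-box (6.42%) were found in none of the 7. These are matches of letters in a short window and show no binding.

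After LEV, Npas4, Fos, Arc and Nr4a1 lay higher than after VEH in most animals, but none of the 10 members was called over all animals. No transcript at all was called between LEV and VEH (0% of 13062). At an unadjusted p under 0.05 stood 5 of the 10 members, all higher after LEV, beside 5.84% of all transcripts. Of the 10 members, 9 had a positive log2 fold change, with a median of 0.16, where the median of all transcripts was 0.00 and 50.2% were positive. The members varied together between animals, as described below. Counts of members, here and in the other comparisons, are therefore not counts of independent observations. Fos and Npas4 were among the transcripts that the study itself picked out on these animals, so their direction here is not independent evidence.

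**Figure D1:**
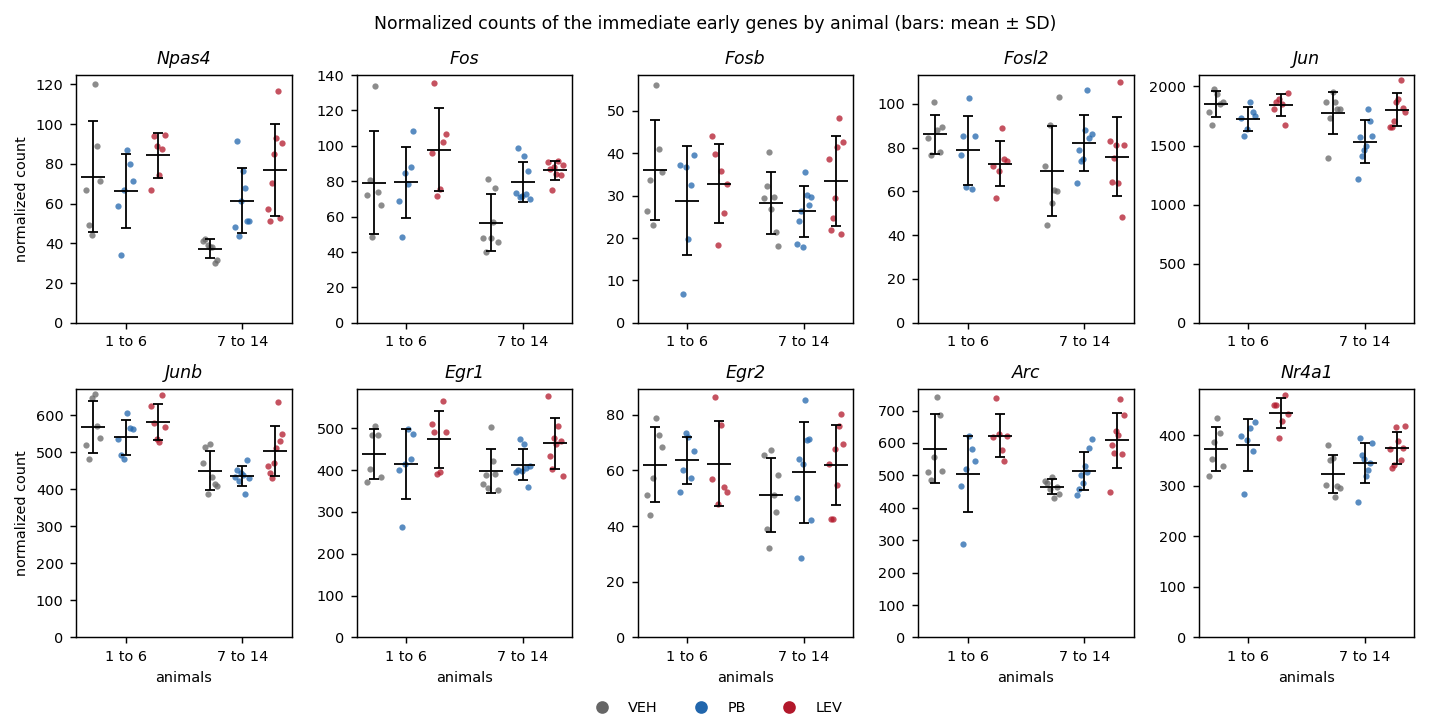
Normalized counts (vertical axes, starting at 0) of the 10 members in each of 41 animals, by group and by animals 1 to 6 or 7 to 14. Points are animals and bars show the mean ± SD; Npas4 in VEH animals 7 to 14 lies between 30.0 and 42.3, below every PB and LEV animal of that code form.

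Npas4 had normalized counts of 30.0 to 120 in VEH animals (median 42.3), 33.9 to 91.7 in PB animals (median 64.1) and 51.2 to 117 in LEV animals (median 86.2). The groups overlapped over all animals. The LEV group was higher by 0.62 (log2 fold change, SE 0.16, p = 0.000409, adjusted p = 0.248), and 13 of 14 LEV animals exceeded the mean VEH value of their code form. Fos had 40.1 to 134 in VEH (median 66.5), 48.5 to 108 in PB (median 75.8) and 71.5 to 136 in LEV animals (median 88.7). Its log2 fold change after LEV was 0.46 (SE 0.13, p = 0.000821, adjusted p = 0.358), with 12 of 14 animals above the VEH mean. The Fos ranges overlapped, and the difference did not pass the test across all transcripts.

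Nr4a1, an orphan nuclear receptor, had 278 to 435 normalized counts in VEH (median 352) and 335 to 481 in LEV animals (median 405). All 14 LEV animals exceeded the mean VEH value of their code form, and the log2 fold change was 0.23 (SE 0.059, p = 0.000338, adjusted p = 0.232). Arc had 431 to 743 in VEH (median 486) and 450 to 740 in LEV animals (median 620), with a log2 fold change of 0.25 (SE 0.083, p = 0.00493, adjusted p = 0.635) and 12 of 14 animals above the VEH mean. Both sets of values overlapped widely. Egr1, a zinc finger factor, was the fifth with an unadjusted p under 0.05, at a log2 fold change of 0.17 (SE 0.075, p = 0.0259).

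The other 5 members differed less from VEH after LEV. Junb had a log2 fold change of 0.10 (p = 0.0721) and Egr2 of 0.15 (p = 0.280). Fosb stood at 0.07, Jun at 0.01 and Fosl2 at -0.05, with 95% intervals that all included 0. For Jun the interval ran from -0.08 to 0.10.

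In the main fit over all animals, the calls of Fos and Npas4 depended on 1 VEH animal. They depended on the processing too. With that animal kept, both were called between LEV and VEH by DESeq2 after batch and batch-by-treatment effects were subtracted. VEH animal 4 had the highest Npas4 (120) of any animal, and with 134 normalized counts its Fos was second to 1 LEV animal. Without it, both were called between LEV and VEH, Fos at a log2 fold change of 0.57 and Npas4 at 0.74, each with an adjusted p of 0.0368, and Fos was also called between PB and VEH (0.37, adjusted p = 0.0445). Since this VEH animal was high in these genes, leaving it out raises the differences by construction, and these calls are no added support. With VEH animal 1 left out instead, no member was called in any of the 3 comparisons over all animals, and Npas4 after LEV stood at 0.63 (adjusted p = 0.342).

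Within animals 7 to 14, Npas4 rose after both drugs. Its normalized counts were 30.0 to 42.3 in 7 VEH animals (median 38.4), 43.6 to 91.7 in 8 PB animals (median 56.2) and 51.2 to 117 in 8 LEV animals (median 77.6). Neither drug group overlapped with VEH. The log2 fold change was 1.05 after LEV (SE 0.20, 2.07-fold, adjusted p = 0.0225), the third smallest p of all transcripts, and 0.72 after PB (SE 0.20, 1.64-fold, adjusted p = 0.0291). Both comparisons use the same 7 VEH animals. In this code form 0.0383% of transcripts were called between LEV and VEH and 1.52% between PB and VEH, and groups without overlap, higher after the drug, were seen in 0.0306% and 0.283% of them. The size of the difference moved little when animals were left out, but the call was lost in some fits. Of the 15 fits that left out 1 animal of the groups and code form compared, 7 kept the call for LEV (log2 fold change 0.94 to 1.12, adjusted p up to 0.104) and 12 for PB (0.61 to 0.78, adjusted p up to 0.0645). Without VEH 10, 11, 12, 13 or 14 or LEV 11, 12 or 14 it was lost for LEV, and without VEH 13, PB 8 or PB 11 for PB. Without VEH animal 1, which is of the other code form, both calls stood (adjusted p = 0.0269 for LEV and 0.0322 for PB).

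The other members in animals 7 to 14 were not called between LEV and VEH, although all 10 had a positive log2 fold change (median 0.23) and 6 of 10 an unadjusted p under 0.05, beside 6.13% of all transcripts. Fos had 40.1 to 81.4 normalized counts in VEH (median 48.0) and 75.1 to 91.4 in LEV animals (median 87.6), at a log2 fold change of 0.61 (SE 0.17, p = 0.000942, adjusted p = 0.539). All 8 LEV animals lay above the VEH mean, and the ranges overlapped only between 75.1 and 81.4. Arc had 431 to 496 in VEH and 450 to 734 in LEV animals, at 0.39 (SE 0.11, adjusted p = 0.539). After PB, 3 members had an unadjusted p under 0.05 (21.7% of all transcripts did). Beside Npas4 these were Fos, at 0.49 (SE 0.17, adjusted p = 0.0733) with 8 of 8 animals above the VEH mean, and Jun, which was lower. Fos passed in PB when VEH animal 4, which is of the other code form, or VEH animal 10 was left out (adjusted p = 0.0447 and 0.0281).

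Markers of some other cells leaned higher or lower after LEV in animals 7 to 14. Of 8 tested red blood cell transcripts, all 8 were lower after LEV, 5 with an unadjusted p under 0.05 and none called. The summed normalized count of the list was 1114 to 7700 in VEH (median 1655) and 1337 to 3328 in LEV animals (median 1643). The medians were thus close, and the sums differed mainly at the top of the VEH range. All 18 tested oligodendrocyte transcripts were higher after LEV, 7 with an unadjusted p under 0.05 and none called, with sums of 17717 to 26543 in VEH and 21661 to 29571 in LEV animals. All 15 choroid plexus transcripts were higher too, with none under an unadjusted p of 0.05. Their sums ran from 98.8 to 45062 in VEH (median 206) and from 98.0 to 63008 in LEV animals (median 21876). With sums this spread within each group, no difference is shown for the choroid plexus. Of 15 tested transcripts of hippocampal neurons, 5 were higher and 10 lower after LEV, and none was called. The share of 18S ribosomal RNA (Rn18s) in the library also differed between these groups. It was 0.853 to 1.20% in VEH animals, 0.384 to 0.580% in 7 of 8 LEV animals with 1.06% in the other, and 0.434 to 0.905% in PB animals. In animals 1 to 6 the Rn18s share was 0.963 to 1.23% in VEH and 0.932 to 1.28% in LEV animals. The part of these cells and of the Rn18s share in the values of Npas4 and Fos was not tested.

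In animals 1 to 6 no member was called after either drug, beside 0.911% of all transcripts called between LEV and VEH and 0.0459% between PB and VEH. Npas4 had 44.3 to 120 normalized counts in VEH (median 69.2), 33.9 to 87.2 in PB (median 69.2) and 66.7 to 94.5 in LEV animals (median 88.1). The LEV animals lay within the VEH range, and the log2 fold change was 0.19 (SE 0.21, adjusted p = 0.786). The top of the VEH range is VEH animal 4, and the next VEH animal had 88.8. Without VEH animal 4 the Npas4 log2 fold change was 0.38 after LEV (adjusted p = 0.495), and after PB it went from -0.15 to 0.04. Nr4a1 was the 1 member with an unadjusted p under 0.05 after LEV (12.5% of all transcripts). It had 319 to 435 in VEH and 395 to 481 in LEV animals, at 0.25 (SE 0.089, adjusted p = 0.178), with 6 of 6 LEV animals above the VEH mean. Without VEH animal 1, the lowest in Nr4a1 of the 6, it was 0.22 (adjusted p = 0.353). Astrocyte markers moved with LEV in these animals. Of 19 transcripts, 5 were called lower and 1 higher, and their summed normalized count was 44315 to 52159 in VEH and 38518 to 43323 in LEV animals, without overlap. Their part in the Nr4a1 and Npas4 values was not tested. In both code forms the Nr4a1 difference after LEV was of like size, 0.25 and 0.21, and the interval of the difference between them ran from -0.21 to 0.28.

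The effect of the drugs on Npas4 differed between the code forms by -0.86 for LEV (animals 1 to 6 less animals 7 to 14, SE 0.29, p = 0.00509) and by -0.87 for PB (SE 0.29, p = 0.00513). Both values subtract the same VEH animals, so they are not independent of each other. Neither passed adjustment over all transcripts (adjusted p = 0.158 and 0.246), and without VEH animal 4 they were -0.66 and -0.67 (adjusted p = 0.314 and 0.387). No member passed this test for any comparison, where 0.842% of transcripts did for LEV against VEH, 0.0689% for PB against VEH and 0.023% between the drugs. The VEH animals stood furthest apart between the forms, at 73.5 ± 28.0 (SD, n = 6) against 37.2 ± 4.69 (n = 7) for Npas4. The PB animals stood at 66.4 ± 18.7 (n = 6) and 61.4 ± 16.4 (n = 8). The LEV animals stood at 84.3 ± 11.2 (n = 6) and 77.1 ± 23.2 (n = 8). For PB against LEV, the Npas4 difference between the forms was -0.01 (SE 0.28, p = 0.973).

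**Figure D2:**
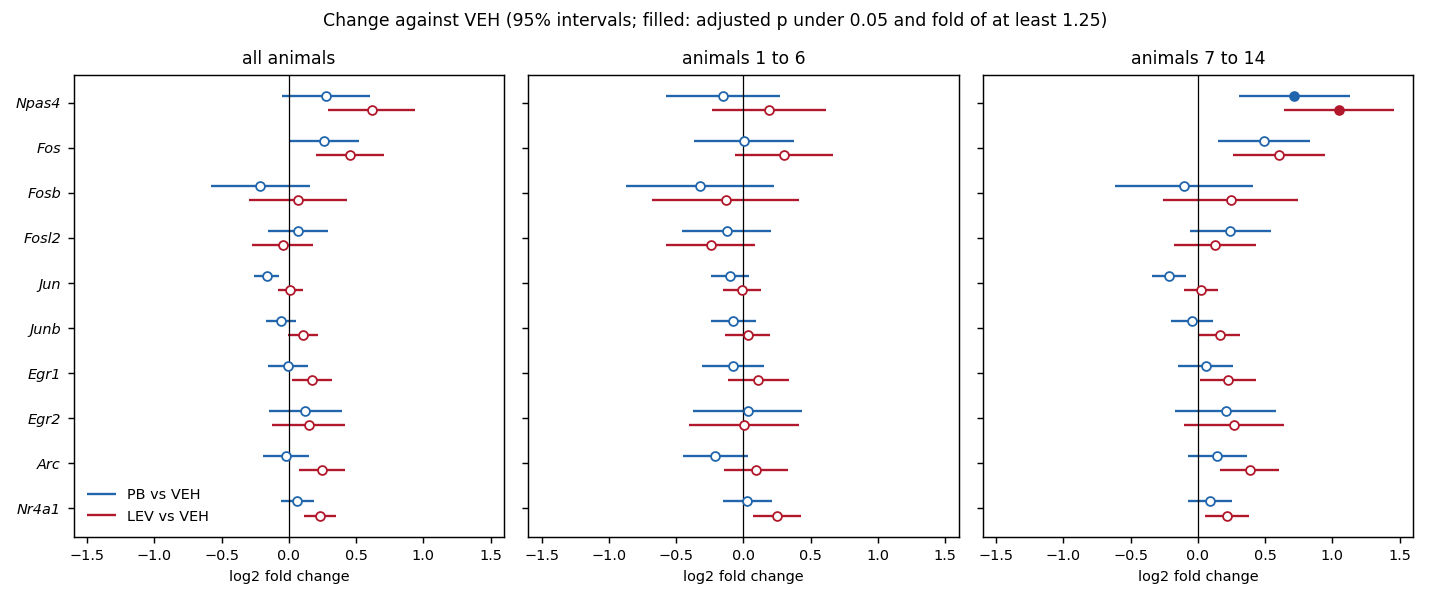
Log2 fold change against VEH (horizontal axis) of each member, with its 95% interval, after PB and after LEV, over all animals, in animals 1 to 6 and in animals 7 to 14. Filled points passed both limits, which were Npas4 after PB (0.72) and after LEV (1.05) in animals 7 to 14.

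After PB, none of the 10 members was called over all animals, beside 0.605% of all transcripts, and 5 had a positive and 5 a negative log2 fold change (median 0.03). Jun, the main partner of Fos proteins in AP-1, was the member that stood out. It had 1396 to 1980 normalized counts in VEH (median 1851), 1213 to 1868 in PB (median 1610) and 1654 to 2058 in LEV animals (median 1833). The PB range reached below that of both other groups and overlapped with them. Jun was lower than in VEH by -0.16 (SE 0.047, adjusted p = 0.0291), and 12 of 14 PB animals fell short of the mean VEH value of their form. This is under the fold limit. An adjusted p under 0.05 alone was reached by 5.39% of transcripts. Without each animal in turn, the adjusted p of Jun ran from 0.00740 to 0.0582.

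The lower Jun after PB was of the same sign in both code forms. In animals 7 to 14 it was -0.21 (SE 0.062, adjusted p = 0.0331, where 6.32% of transcripts had an adjusted p under 0.05), and in animals 1 to 6 it was -0.10 (SE 0.069, adjusted p = 0.664). The difference between the forms was 0.11 (95% interval -0.08 to 0.30). Fos had a log2 fold change of 0.26 after PB (SE 0.13, p = 0.0453, adjusted p = 0.234). Together with Jun this made 2 of 10 members with an unadjusted p under 0.05, a share near the 20.2% of all transcripts. Fosb, a member with few counts, stood at -0.21 (SE 0.18), and its PB values ran from 6.79 to 39.6 normalized counts.

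Markers of neurons moved with PB as well. Of 15 tested transcripts of hippocampal neurons, 12 were lower after PB over all animals, 5 with an unadjusted p under 0.05 and none called. All 5 inhibitory neuron transcripts were lower, and Sst, which encodes somatostatin, was called (-0.38, SE 0.074, adjusted p = 0.00183). The sums of the hippocampal neuron list were 31665 to 39804 in VEH, 26975 to 34922 in PB and 29344 to 37543 in LEV animals. Within animals 1 to 6, 3 of 4 tested skeletal muscle transcripts were lower after PB than in VEH. The sum of all 22 listed was 365 to 527 in VEH, 344 to 638 in LEV and 149 to 221 in PB animals. In animals 7 to 14 it was 138 to 196 in VEH, 112 to 205 in PB and 137 to 202 in LEV animals. The PB animals 1 to 6 thus lay near the level of every group of animals 7 to 14. Of 8 markers of neighbouring neocortex and thalamus, 6 were higher after PB over all animals, 2 of them called, and their summed normalized count was 1961 to 3079 in VEH and 2525 to 3628 in PB animals. In animals 7 to 14, 4 of the 8 were higher at an unadjusted p under 0.05, with Rorb called. Of 19 astrocyte transcripts, 13 were lower and 6 higher after PB over all animals, 5 of the lower with an unadjusted p under 0.05. The 1 called was Gfap, a filament gene, which was higher (0.32, adjusted p = 0.00241). Of 18 oligodendrocyte transcripts, 11 were lower and 7 higher, and the 1 called was Opalin, which was lower (-1.39, adjusted p = 0.0339). The part of these cells in the Jun difference was not tested.

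Between the drugs, 9 of 10 members were lower after PB than after LEV (median -0.18), none of them called, beside 0.582% of all transcripts. At an unadjusted p under 0.05 stood 6 of the 10, all lower after PB, and 19.6% of all transcripts. An adjusted p under 0.05 was reached by Jun (-0.17, SE 0.046, adjusted p = 0.0226) and Arc (-0.27, SE 0.082, adjusted p = 0.0485), both under the fold limit, and by 4.45% of all transcripts. Arc had 288 to 622 normalized counts in PB (median 515) against 450 to 740 in LEV animals. The lowest value, of PB animal 2, stood apart, and 12 of 14 PB animals lay below the LEV mean of their form. The adjusted p of Arc ran from 0.0295 to 0.0925 as each animal was left out, and was 0.0501 without VEH animal 1.

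Of the others, Junb stood at -0.16 (adjusted p = 0.0757), Nr4a1 at -0.17 (adjusted p = 0.0864), Egr1 at -0.18 (adjusted p = 0.158) and Npas4 at -0.34 (adjusted p = 0.212) between PB and LEV. Within the forms no member was called, beside 0.0459% of all transcripts in animals 1 to 6 and 0.528% in animals 7 to 14. Jun in animals 7 to 14 had 1213 to 1807 normalized counts in PB and 1654 to 2058 in LEV animals, a difference of -0.24 (SE 0.060, adjusted p = 0.0333, where 1.66% of transcripts passed this limit alone). All 6 PB animals of animals 1 to 6 lay below the LEV mean in Nr4a1, and all 8 of animals 7 to 14 in Junb, without a call.

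With the 3 groups fitted together, all 10 members were higher in animals 1 to 6 than in animals 7 to 14. Of all transcripts, 49.7% were. The means were not higher in every group. Fosl2 had 86.1 against 69.3 in VEH, but 78.8 against 82.1 in PB and 72.6 against 75.9 in LEV animals. This comparison of code forms was chosen after the values were seen. An unadjusted p under 0.05 was reached by 5 of the 10 members and by 40.1% of all transcripts. Npas4 was called, at a log2 difference of 0.39 (SE 0.13, adjusted p = 0.0206), and 4.12% of all transcripts were. Junb had 482 to 657 normalized counts in animals 1 to 6 (median 564) and 388 to 635 in animals 7 to 14 (median 443), at 0.28 (SE 0.046, adjusted p = 5.51e-06), just under the fold limit. Nr4a1 stood at 0.20 (SE 0.048, adjusted p = 0.00139). An adjusted p under 0.05 was reached by these 3 members and by 30.2% of all transcripts, so the code forms differed broadly. Red blood cell transcripts went the same way, with sums of 8509 to 19551 in animals 1 to 6 and 1114 to 7700 in animals 7 to 14, and 7 of 19 astrocyte transcripts were called lower in animals 1 to 6. Their part in the member values was not tested. The labels do not say whether the forms mark an order of animals, a day or a sequencing run.

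The members varied more between animals of 1 group and code form than other transcripts of like level did. Their within-group SD on the log2 scale was above that of 67.2% (Fosl2) to 92.0% (Arc) of the 500 transcripts nearest in mean level. The SD ran from 0.13 for Jun to 0.49 for Fosb.

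They also varied together. With the mean of each group and code form removed, Pearson's r over the 41 animals was above 0 in 41 of 45 pairs of members, with a median of 0.37 (-0.08 to 0.64), and the median of Spearman's rho was 0.34. The same was not computed for other sets of transcripts, so it is not shown to be particular to the members. The highest was Npas4 with Arc, with p-values from 100000 two-sided permutations within group and code form, adjusted over the 45 pairs (r = 0.64, adjusted p = 0.0075, and rho = 0.61, adjusted p = 0.00922). Within animals 1 to 6 this r was 0.84 and within animals 7 to 14 it was 0.36. Fosl2 followed the others least, with a median r of 0.02, against 0.48 for Fosb and 0.47 for Arc.

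**Figure D3:**
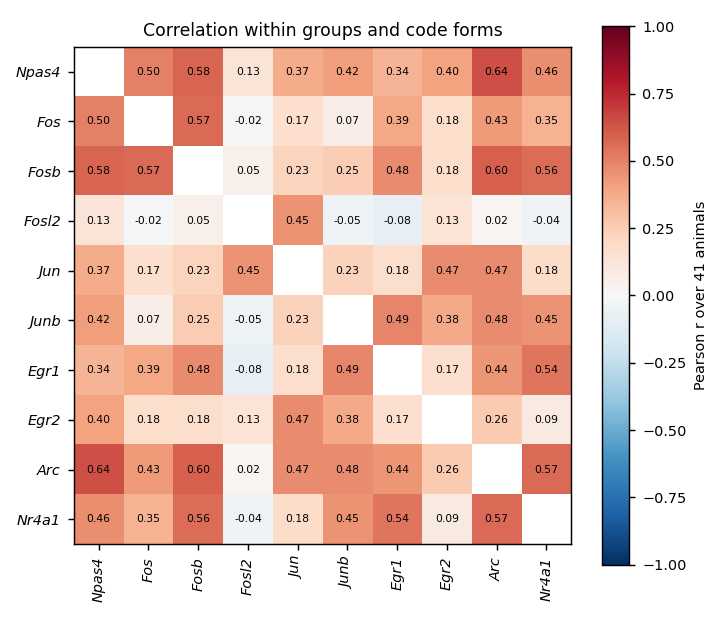
Pearson's r between the members over 41 animals, with the mean of each group and code form removed; colour runs from -1 to 1. All pairs of Npas4, Fosb, Arc and Nr4a1 are positive, up to 0.64 for Npas4 with Arc, and the column of Fosl2 is near 0 except with Jun (0.45).

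A pair of animals carried much of this. Their score, the mean of the standardized members, was lowest in PB animal 2 (-1.95) and highest in VEH animal 4 (1.41). PB animal 2 had 6.79 normalized counts of Fosb, 33.9 of Npas4, 264 of Egr1 and 288 of Arc, each the lowest of the 41 animals but for Npas4. All 10 members of VEH animal 4 lay above the mean of its group and code form, and in VEH animal 1 and PB animal 7 none did. Without PB animal 2 and VEH animal 4, the median r over the pairs was 0.20, Npas4 with Arc stood at 0.49, and 40 of 45 pairs were above 0. These animals were picked as furthest out in the score of the same members. Lower correlations without them are therefore partly by construction. With all animals kept, the median r was 0.44 within animals 1 to 6 and 0.22 within animals 7 to 14. PB animal 2 and VEH animal 4 are both among animals 1 to 6.

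**Figure D4:**
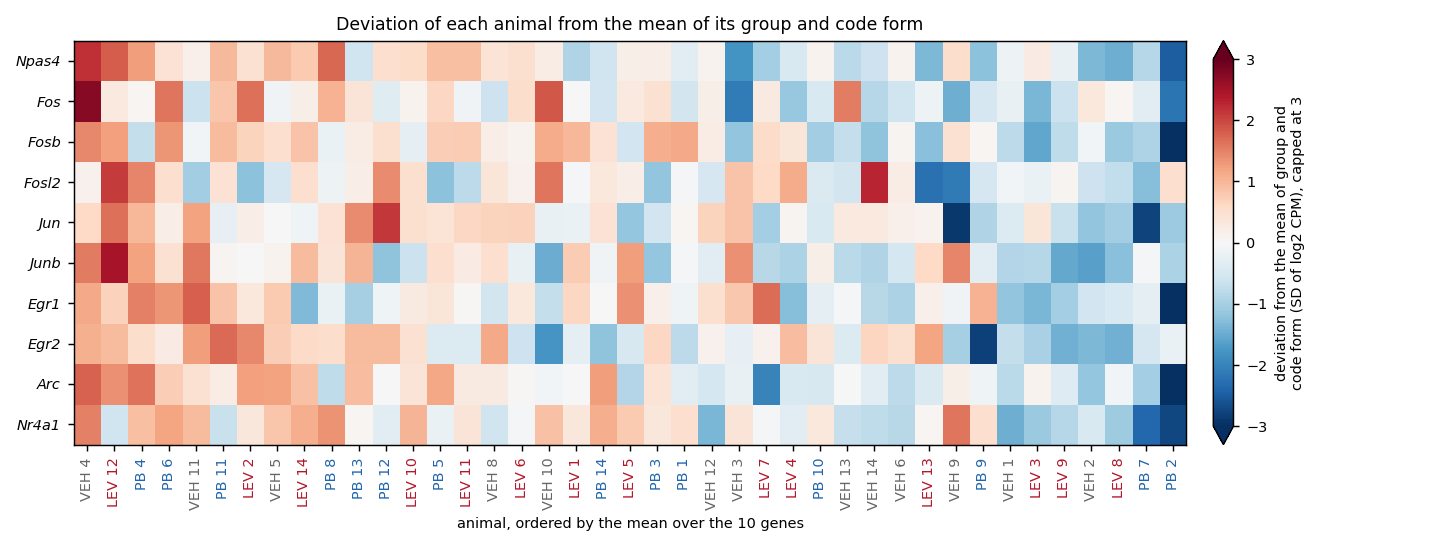
Deviation of each of the 41 animals (columns, named by group and number) from the mean of its group and code form for each member (rows), in SD of log2 CPM, with colours capped at 3. Animals are ordered by the mean over the 10 members, from VEH 4 (1.41) on the left to PB 2 (-1.95) on the right.

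Among the transcripts outside the members that followed this score most closely were Rtn4rl1, Kcnab2, Nsf, Ywhah, Cluh and Camkv, with r from 0.78 to 0.71 over the 41 animals, where 95% of all 13062 transcripts lay below 0.42. Nsf encodes an ATPase of membrane fusion and Kcnab2 a potassium channel subunit. Rtn4rl1 stood at r = 0.78 (rho 0.73) and kept 0.77 without PB animal 2 and VEH animal 4. A mean score of the hippocampal neuron list had an r of 0.57 with the member score (rho 0.63), and one of the inhibitory neuron list 0.50. All these values share the same libraries and their scaling.

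Other genes of the pathway were described from 4 lists. Of 27 tested transcripts of 21 further rapid-response transcription factors, none was called over all animals after either drug. Median log2 fold changes were -0.01 for PB and 0.00 for LEV, against 0.16 for the 10 members after LEV. Nr4a2, a relative of Nr4a1, rose after PB in animals 7 to 14 (0.52, SE 0.15, adjusted p = 0.0290), and over all animals it stood at 0.39 (adjusted p = 0.0537). Egr3, a relative of Egr1, was higher after PB than after LEV in animals 7 to 14 (0.33, SE 0.072, adjusted p = 0.0111). Egr1 in the same animals stood at -0.17 (SE 0.098, adjusted p = 0.392).

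Of 25 tested transcripts of feedback regulators, none was called in any drug comparison, and 13 stood higher after PB and 16 after LEV. Sik1, a kinase that restrains CREB coactivators, had a log2 fold change of 0.29 after PB (SE 0.089, adjusted p = 0.0432) without reaching the fold limit, and Dusp1, a phosphatase of MAP kinases, stood at 0.18 after LEV (p = 0.00424, adjusted p = 0.620). Dusp4 stood at -0.13 after LEV (p = 0.0539). Among 23 tested transcripts of secreted and synaptic effectors, Adcyap1, which encodes the neuropeptide PACAP, rose after PB in animals 7 to 14 (0.47, SE 0.14, adjusted p = 0.0454). The other 22 were not called within either form or over all animals in the drug comparisons.

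Of 38 tested transcripts of calcium, CREB, SRF and MEF2 signalling, 1 was called over all animals. Grin1, 1 transcript of the obligatory NMDA receptor subunit, was lower after PB than after LEV (-0.33, SE 0.096, adjusted p = 0.03998). Grin2b, another NMDA receptor subunit, fell after LEV in animals 1 to 6 (-0.54, SE 0.13, adjusted p = 0.0149), and over all animals it stood at -0.41 (adjusted p = 0.179). Among these 38, 24 had a negative log2 fold change after PB (median -0.05) and 24 after LEV (median -0.01). A mean score of this list had an r of 0.66 with the member score over the 41 animals.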

How the data were processed

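Hippocampal RNA-seq libraries, 1 per animal, were analysed. The deposited values are estimated counts per RefSeq transcript, which the authors made by aligning reads to rn6 with STAR 2.7.3a and quantifying them with Partek's expectation-maximization method. Of all values 13.7% were not whole. The columns of the authors' own comparisons (fold changes and p-values) were not used. Estimated counts were rounded, scaled by TMM and tested with the quasi-likelihood test of edgeR 4.0.16 (limma 3.58.1, R 4.3.3), with Benjamini-Hochberg adjustment over the 13062 of 15516 transcripts that passed filterByExpr. One model held group and code form, and the other the 6 combinations of both. The scripts were tested on simulated data. DESeq2 1.42.0, other filters and scalings, the replicate block and leaving out animals were tried as alternatives. The labels number animals across groups without saying whether a number marks a litter. Over 40 same-numbered pairs the correlation of deviations ran from -0.33 to 0.33. This range cannot exclude that some numbers pair littermates. The numbers were not used as pairs in the main tests. Groups share litters, but the labels do not say which animals are littermates, so litter could not be fitted.

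All members are named, with transcripts of other lists that were called in any comparison, or up to 3 of the smallest p, and transcripts among the 8 closest in pattern to the members, of which some are not reported here. Members and lists were chosen with earlier results of these data known. The comparison of code forms, leaving out PB animal 2 with VEH animal 4, and leaving out each animal within code forms were added after seeing the data.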

Additional observations from a re-analysis of the deposited data

Results flagged for a closer look

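Jun in VEH animal 9 stood apart from the other VEH animals 7 to 14, at 1396 normalized counts against 1734 in the nearest of the other 6. It was the 1 value to stand apart among the 60 combinations of member, group and code form examined, and chance marks about 5% of such groups.

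The VEH animal excluded by its label, which enters no comparison, had 143.5 normalized counts of Fosl2, above the highest analysed VEH animal (103.0), and 554 of Egr1, above the highest (506). The other 8 members of that animal lay within the range of the VEH group, except Fosb (14.7, where the lowest VEH animal had 18.1). Its Rn18s share was 2.42% of the library, against 0.384 to 1.68% in the analysed animals, and it had 325 counts over the 3 Y-linked transcripts.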

How the results depend on the processing

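Of 1557 member changes refitted over all animals, 1526 kept their direction and side of the threshold, 9 came to pass it and 22 changed sign, none of those by a size over 0.0772. PB against VEH changed sign for Fosl2 (-0.0207) with the excluded animal kept, and for Egr1 (0.0601) and Arc (0.0772) without PB animal 2 and VEH animal 4. Leaving out single animals, values that changed sign at least once ran from -0.0257 to 0.0390 for Egr1 and -0.0466 to 0.0344 for Arc (PB against VEH), -0.101 to 0.00183 for Fosl2 and -0.0148 to 0.0245 for Jun (LEV against VEH), and -0.0771 to 0.0319 for Egr2 (PB against LEV). Causes were not tested.

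Calls between LEV and VEH over all animals, 0 in the report, were 5 with DESeq2, 1 without a filter, 1 at a mean of at least 50 counts, 14 (2 of them members, Npas4 and Fos) after subtracting batch and batch-by-treatment effects, and 3 (2 of them members) without PB animal 2 and VEH animal 4, where PB against VEH also had 2 member calls. That pair was picked by a score of the same members, so leaving it out raises their differences by construction. PB against LEV had 36 calls with DESeq2 and 34 with the excluded animal kept. DESeq2 gave 13 calls for PB against VEH and 12 for PB against LEV in animals 1 to 6, and 59 (PB) and 215 (LEV) for the difference between code forms. Animals 1 to 6 fitted alone gave 17 calls for PB against VEH and 24 for PB against LEV, and animals 7 to 14 fitted alone gave 2 member calls for PB.

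The replicate block treated animals of the same number as sets, which the labels do not state. It gave 55, 0 and 63 calls for PB against VEH, LEV against VEH and PB against LEV, none a member. Within code forms the block gave 14 calls for PB against VEH and 10 for PB against LEV in animals 1 to 6, 114 for PB against VEH in animals 7 to 14, and 2 member calls for LEV in animals 7 to 14.

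When single animals were left out, calls ranged from 52 to 115 for PB against VEH (members 0 to 1), 0 to 4 for LEV against VEH (members 0 to 2) and 39 to 101 for PB against LEV (members 0 to 0). In animals 1 to 6 they ranged from 2 to 11, 72 to 143 and 1 to 11 in the same order, and in animals 7 to 14 from 121 to 276 (members 0 to 2), 2 to 5 (members 0 to 1) and 29 to 111. For the difference between code forms they ranged from 1 to 38, 60 to 230 and 0 to 3. Fosb, with as few as 7 counts in an animal, is the member that depth limits most.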
